A study of Mus musculus with 3 samples.

Results

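Blood CD8 T cells with at least 1 UMI of Ccr7, the chemokine receptor that guides T cells into lymph nodes, at least 1 UMI of Igfbp4, which encodes an insulin-like growth factor binding protein, and no UMI of Gzma, which encodes granzyme A, are described here. A UMI is 1 counted RNA molecule. The cells were chosen on these measured values in the PBMC library, after cells of fewer than 500 genes or over 10% mitochondrial counts were removed. The rule found 795 of 5652 filtered PBMC cells, a share of 14.1% (Clopper-Pearson 95% interval 13.2–15), out of 18920 filtered cells in 3 libraries. The levels of Ccr7 (359.8 against 156 CPM in the other PBMC cells), Igfbp4 (212 against 14.02) and Gzma (0 against 1643) follow from the rule and describe the choice only. CPM is the usual scaling of a gene's counts, summed over the cells of a group, by all counts of that group.

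Naive CD8 T cells circulate between blood and lymph nodes by means of CCR7 and adhesion molecules, and keep the transcription factors TCF-1 and LEF1. After they meet antigen, many of their descendants lose these molecules, gain integrins and receptors for inflamed tissue, and load granules with granzymes and perforin. Central memory and stem-like cells keep or regain much of the homing program, so these genes alone do not separate naive cells from memory cells.

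All 3 libraries were labelled C57BL/6 and WT and held P14 cells, whose transgenic receptor recognizes the GP33-41 epitope of LCMV on H-2Db. For the PBMC library and the library from tumour-draining lymph nodes (TdLN), CD44- GFP+ naive P14 cells of TCF-1-GFP reporter mice were given on day 8 of B16.Gp tumours, a melanoma line that carries the LCMV glycoprotein. Both were collected on day 16 after that transfer through a gate on CD45.1+ and CD44+ cells among CD8 T cells, so the sort asked for CD44 protein, which naive cells have little of. The memory library came from day 200 of an acute LCMV infection and its gate took CD45.1+ CD44+ cells that, among other conditions, were CD127+ and lacked KLRG1. Each group had 1 library of an unstated number of mice, so no test between groups was possible. Intervals are 95% and cover counting error only.

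The selected cells were deeper than the rest of the PBMC cells. They had a median of 12914 UMIs and 2344 genes, against 6241 UMIs and 1846 genes, while the median mitochondrial shares were 4.43% and 4.37%. Their 10402360 counts ranged from 993 to 27322 per cell, and a gene without any count could have had up to 0.288 CPM (3 counts). Cell barcodes shared with the TdLN library numbered 17, of which 4 were selected cells, and with the memory library 15, of which 2 were.

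The share of selected cells moved with depth. It was 0.442% in the lowest quintile of PBMC cells by UMIs, 0.531% in the next, 4.16% in the middle, 28.2% in the fourth and 37.0% in the highest. Ccr7 was detected in 4.16% of the lowest quintile and 91.6% of the highest, whereas Gzma, which deeper cells had more chances to show, went from 74.0% to 21.9%. With every cell thinned to 4800 UMIs before the rule was applied, 420 cells passed, 9.18% of those deep enough. Asking for at least 2 UMIs of Ccr7 and of Igfbp4 gave 7.70%. The same rule took 1909 of 6265 TdLN cells, 30.5% (29.3–31.6), with a median of 10016 UMIs against 9486 in the rest. In the memory library it took 10 of 7003 cells, 0.143% (0.0685–0.262), which were too few to compare further. Igfbp4 was detected in 0.214% of memory cells, 37.5% of TdLN cells and 18.2% of PBMC cells, at median depths of 9956, 9674 and 7085 UMIs. The part of free RNA in these shares was not tested.

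**Figure D1:**
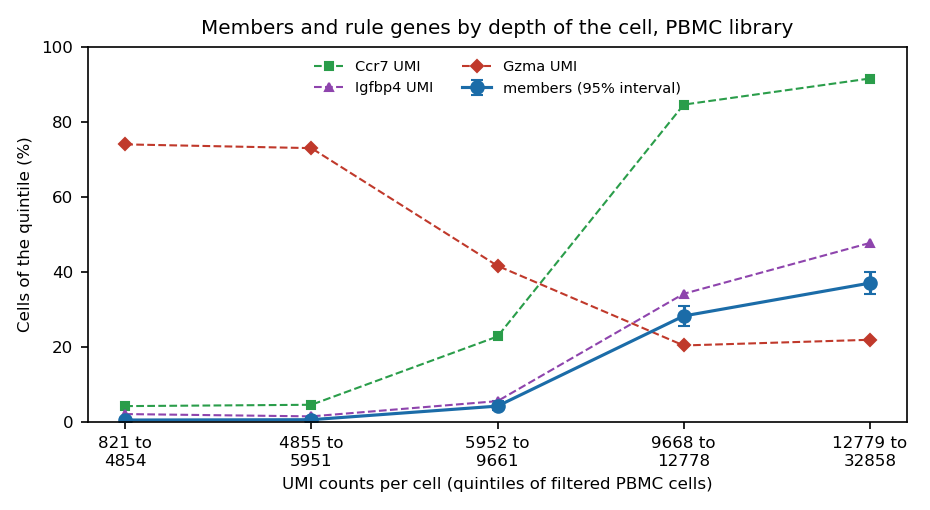
Share of filtered PBMC cells that meet the rule, with 95% Clopper-Pearson intervals, and shares with a UMI of Ccr7, Igfbp4 or Gzma (dashed), in quintiles of the cells by UMI count. The selected share goes from 0.442% to 37.0%, and Gzma detection from 74.0% to 21.9%.

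Just inside the rule, 314 cells (39.5%) had exactly 1 Igfbp4 UMI and 88 (11.1%) exactly 1 Ccr7 UMI. Just outside were 1110 cells with Ccr7 and neither Igfbp4 nor Gzma, 161 cells with all 3 genes and 46 cells with Igfbp4 alone.

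Besides Ccr7 and Igfbp4, 3 markers belong to the label of naive-like cells, and all 3 were higher in the selected cells. They were chosen with earlier results of these data known, so their levels describe the label and do not test it. Dapl1 stood at 537 against 278 CPM in the other PBMC cells, a ratio of 1.94 (1.87–1.999), with a median of 6 UMIs in a selected cell and 0 in another. The values of the 2 groups overlap, since the highest single cell had 28 UMIs among the selected and 75 among the others. Actn1, the actin cross-linker alpha-actinin 1, stood at 121 against 63.0 CPM, and Lef1, the partner of TCF-1 in DNA binding, at 196 against 121. The differences were smaller against cells with Ccr7 but neither Igfbp4 nor Gzma. These had Dapl1 at 505, Actn1 at 112 and Lef1 at 169 CPM. After thinning, Dapl1 was detected in 72.5% of selected and 29.0% of other cells, Actn1 in 42.0% of selected and 18.5% of other cells, and Lef1 in 60.5% of selected and 37.0% of other cells. In mm10 (GRCm38), with GENCODE M21 gene models, Ccr7 lies at chr11:99144196-99155077 on the minus strand and Igfbp4 at chr11:99041244-99054392 on the plus strand. Dapl1 lies at chr2:59484653-59505020, Lef1 at chr3:131110471-131224356 and Actn1 at chr12:80167547-80260371.

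Because these markers were high together, their promoter windows were searched on both strands for a TCF/LEF core (CTTTGA), a FOXO core (GTAAACA), a RUNX core (TGTGGT) and a KLF box (GGGTGTG), motifs of factors known from naive T cells. The RUNX core and the KLF box can overlap. RefSeq windows of GRCm38.p6, from 250 bases before to 50 after a start, were found for 4 of the 5 markers. The 3 windows with a match are printed 5′ to 3′ on the strand of the gene, with the matched letters in capitals.
Igfbp4, chr11:99040994-99041293, plus strand, KLF box: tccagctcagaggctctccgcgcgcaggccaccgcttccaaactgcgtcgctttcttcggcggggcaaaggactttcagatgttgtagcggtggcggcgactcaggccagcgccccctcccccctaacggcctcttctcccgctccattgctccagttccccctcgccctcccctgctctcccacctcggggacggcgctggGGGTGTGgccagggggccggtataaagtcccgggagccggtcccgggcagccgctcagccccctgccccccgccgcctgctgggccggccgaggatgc
Dapl1, chr2:59484403-59484702, plus strand, FOXO core: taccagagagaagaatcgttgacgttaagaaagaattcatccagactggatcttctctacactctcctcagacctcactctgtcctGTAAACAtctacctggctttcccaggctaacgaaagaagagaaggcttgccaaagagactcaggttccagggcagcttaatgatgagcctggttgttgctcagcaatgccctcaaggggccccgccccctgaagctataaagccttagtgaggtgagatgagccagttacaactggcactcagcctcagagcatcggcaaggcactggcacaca
Lef1, chr3:131156044-131156343, plus strand, a start inside the gene, TCF/LEF core read on the other strand: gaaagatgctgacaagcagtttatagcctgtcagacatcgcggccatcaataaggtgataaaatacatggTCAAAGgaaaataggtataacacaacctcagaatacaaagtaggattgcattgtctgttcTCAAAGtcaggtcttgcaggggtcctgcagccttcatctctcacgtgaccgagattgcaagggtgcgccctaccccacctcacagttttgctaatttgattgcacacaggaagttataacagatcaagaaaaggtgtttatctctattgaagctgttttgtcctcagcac

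The Actn1 window and the other 3 Lef1 windows held none of these letters, and no marker window held the RUNX core. Of all 32851 windows, 16.0% held the TCF/LEF core, 3.65% the FOXO core, 16.8% the RUNX core and 7.95% the KLF box. A match describes the letters and not a bound factor.

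The selected cells carried CD8 T cell transcripts. All 9 CD8 T cell markers were present, with Cd8a, the coreceptor's alpha chain, at 289 against 346 CPM in the other cells and Cd3e, a chain of the receptor complex, at 305 against 414. Of the markers of other cells, 6 of 6 neutrophil, 4 of 5 melanoma, 3 of 6 erythroid, 3 of 8 B cell, 2 of 8 myeloid and 0 of 8 platelet genes had 0 counts. Among those at 0 were Cd4, the B cell genes Ms4a1 and Ebf1, the macrophage genes Csf1r and Adgre1 and the NK cell gene Ncr1. Of the B cell list, 4 genes were higher in the selected cells: Ighm at 128 against 78.3 CPM, Cd79b, a chain of the B cell receptor complex, at 17.9 against 10.4, Ighd at 4.04 against 1.06 and Cd79a at 0.385 against 0.130. The part of B cell RNA in the selected cells was not tested. The summed B cell list was at 151 against 91.7 CPM, and the summed gamma delta T or NK cell list (6 genes) at 354 against 279.5, of which Trdc made up 343 against 225. In cells with Ccr7 but neither Igfbp4 nor Gzma, Ighm was at 133 and Trdc at 357 CPM, no lower than in the selected cells. The other summed lists were lower than in the other cells: myeloid 78.2 against 133 CPM, platelet 23.0 against 47.7, erythroid 1.44 against 4.46, CD4 or regulatory T cell 1.44 against 9.05 and melanoma 0.0961 against 0.156. No selected cell had over 1% of its counts in any of these lists, and 3 other PBMC cells did, in the platelet list.

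The receptor segments of the selected cells were mostly those of P14. The P14 beta chain uses the V segment Trbv13-3 and the alpha chain Trav14. Of 407 beta V UMIs in the selected cells, 11.5% (8.61–15.1) came from other segments, against 36.0% (33.7–38.3) of 1707 in the other PBMC cells. Trav14 gave 74.9% (70.9–78.6) of 514 alpha V UMIs, against 50.7% (48.7–52.6). Other beta segments made up 11.6% (9.31–14.3) in TdLN cells of the rule, 10.5% (8.96–12.2) in the other TdLN cells and 4.49% (3.96–5.08) in memory cells. Within blood the share was 12.2% in cells with Ccr7 alone, 15.2% with all 3 genes and 18.1% with Ccr7 and Gzma. It was 54.8% (48.9–60.6) in cells with none of the 3 genes and 68.9% (64.5–73.1) with Gzma alone. The few cells with Igfbp4 alone, with 17 beta V UMIs, stood at 11.8% (1.46–36.4). The libraries read the 3′ end, so few UMIs reach a V segment. Without thinning, a Trbv13-3 UMI was seen in 32.3% of selected and 16.0% of other cells. The part of free RNA and of second receptor chains in these shares was not tested.

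Across genes, the selected cells differed from the other PBMC cells mainly by what they had little of. Of 4319 genes that reached 20 CPM in the group where they were higher, rule genes left out, 13 were at least 2-fold higher (0.301%) and 214 at least 2-fold lower (4.95%). The median log2 ratio over all of them was −0.32, with 634 genes above 0 and 3685 below. Ribosomal protein genes took 51.1% of the counts of the selected cells and 39.0% of the others, and their part in the median was not tested. TMM scaling moved every log2 ratio up by 0.27 and gave 1859 genes above 0, 45 at least 2-fold higher and 133 lower. Totals without ribosomal and mitochondrial genes moved them up by 0.35 and gave 2350, 96 and 181. Among the 635 selected and 1300 other cells with 10010 to 16305 UMIs, 1 gene was at least 2-fold higher and 31 lower. Among the 252 selected and 705 other cells whose sole beta segment was Trbv13-3, the counts were 3 and 44. Against the 3305 PBMC cells without a Ccr7 UMI, a comparison chosen after the values were seen, they were 95 and 636.

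Among the 12 genes above 50 CPM with the highest ratios were Tdrp, Rgs10, Socs3, Tmem108, Jun, Nsg2, Fam241a, Tnfsf8, Dapl1, Actn1 and Plac8. Rgs10, which switches off G protein signals, stood at 343 against 149 CPM, a ratio of 2.30 (2.21–2.40), with a median of 4 UMIs in a selected cell and 0 in another. It was detected after thinning in 76.8% of selected and 31.5% of other cells. Tdrp stood at 74.3 against 32.0 CPM (2.32-fold) and Tmem108 at 75.7 against 36 (2.10-fold). Socs3, a feedback inhibitor of receptors that use gp130, was at 76.2 against 35.9 CPM (2.13-fold). Il6ra and Il6st, the interleukin-6 receptor and gp130 itself, were at 49.7 against 25.1 and 37.3 against 18.8 CPM. Jun, a subunit of AP-1, was at 223 against 112 CPM, and Tnfsf8, the ligand of CD30, at 56.4 against 28.9. Plac8 was at 832 against 465 CPM (1.79-fold, 1.74–1.84). Below 50 CPM, and named after its values were seen, the highest was Ramp1, a subunit of the receptor for calcitonin gene-related peptide, at 22.2 against 5.68 CPM (3.91-fold). Over cells with Ccr7 alone, the ratios of these 11 genes lay between 1.06 (Dapl1) and 1.34 (Rgs10). In cells with Ccr7 and Gzma, Rgs10 was at 233 and Jun at 164 CPM, and in cells with all 3 rule genes at 301 and 194.

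The lowest ratios above 50 CPM belonged to Zeb2, Klre1, Cx3cr1, Lgals3, S1pr5, Gzmk, S100a4, Klrg1, Gzmb, Ccr2, Klrc1 and Klrk1. Zeb2, a transcription factor of terminally differentiated effector cells, stood at 1.15 against 145 CPM (12 counts in all selected cells), 126-fold lower. Without thinning, Zeb2 was detected in 1.01% of selected and 43.9% of other cells. Cx3cr1, the fractalkine receptor of patrolling effector cells, was at 2.21 against 149 CPM (67.5-fold lower) and S1pr5, a sphingosine-1-phosphate receptor, at 0.865 against 54.3 (62.8-fold). Gzmk and Gzmb, granzymes that the rule did not use, were 54.6-fold and 38.5-fold lower. Gzmk went with Gzma, which the rule did use. It was at 1.92 CPM in the selected cells, 7.15 with Ccr7 alone and 21.3 with all 3 rule genes. S100a4, a calcium-binding protein of motile cells, was at 15.4 against 696 CPM, with at most 15 UMIs in a selected cell and up to 103 in another. Cells without a UMI were found on both sides for each of these genes, so single cells overlap. Within the same UMI range as above, Zeb2 was 30.1-fold lower (12.8–93.4, 5 counts), Cx3cr1 10.5-fold (6.49–18.3) and S1pr5 8.82-fold (4.15–22.4, 7 counts). There the other cells had Zeb2 at 18.3 and S1pr5 at 7.51 CPM, below 20. Lgals3 was 19.5-fold lower in that range, Klre1 16.5-fold, Gzmb 14.6-fold, Gzmk 14.5-fold, S100a4 12.3-fold and Klrk1 8.40-fold. These ratios are smaller than over all cells in each case.

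**Figure D2:**
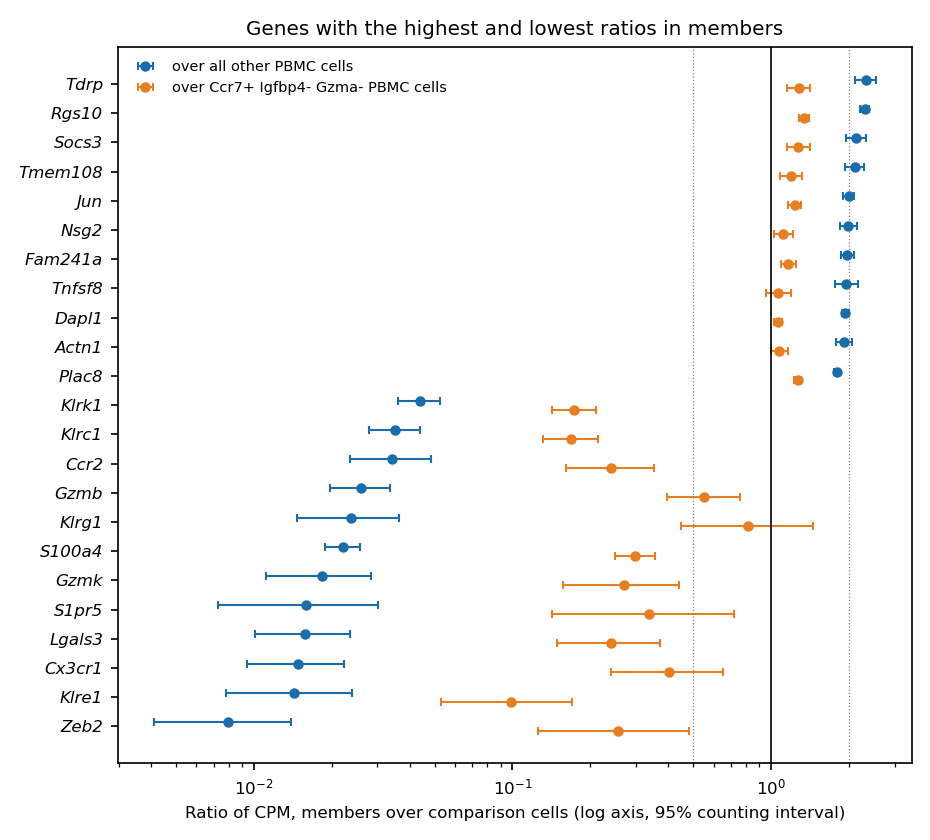
Ratio of summed CPM in the selected cells over all other PBMC cells (blue) and over Ccr7+ Igfbp4- Gzma- PBMC cells (orange), on a log axis with 95% counting intervals, for 11 of the 12 highest and the 12 lowest genes above 50 CPM. Dotted lines mark 2-fold either way; Rgs10 lies at 2.30 and 1.34, and Zeb2 at 0.00795 and 0.256.

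Of 13 naive T cell genes outside the rule, 11 were higher and 0 passed 2-fold (median log2 ratio 0.62, against −0.32 over all genes). The 13 include the label's markers Dapl1, Actn1 and Lef1, whose levels describe the label and do not test it. Satb1, an organizer of chromatin, was at 233 against 152 CPM and Tcf7, which encodes TCF-1, at 264 against 178. Il7r, the receptor chain for the survival cytokine interleukin-7, was at 378 against 287 CPM, and Bach2, a repressor of effector differentiation, at 31.2 against 22.6. Klf2, which drives S1pr1 transcription, was at 1244 against 1405 CPM and S1pr1, the receptor for leaving lymph nodes, at 129 against 134; under both other scalings these were higher too, so that all 13 were. Within the UMI range given above, 12 of the 13 were higher, with a median of 0.14. Of 6 stem and precursor genes, 5 were higher and 0 passed 2-fold (median 0.43), and 4 of the 6 are also on the naive list. Tox, a factor of exhausted and memory-like cells, was at 17.9 against 20.3 CPM, and was higher under both other scalings and, by 1.01-fold (0.820–1.24), within the UMI range. In the T cell transcription factor list, 3 of 12 were at least 2-fold lower and 0 higher (median −0.01): Zeb2, Tbx21, which encodes T-bet (9.38-fold), and Id2 (6.44-fold), all of which are on effector lists as well.

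All 16 antigen-experienced T cell genes were lower, 12 of them at least 2-fold (median −2.41). Over all 4319 genes compared, 3685 were lower, 214 of them at least 2-fold. Cd44, whose protein the sort required, was at 20.6 against 52.2 CPM, 2.54-fold lower. Without thinning, Cd44 was detected in 21.9% of selected and 31.0% of other cells, at unequal depths. Ccl5, a chemokine held ready in memory and effector cells, was at 1009 against 19426 CPM. Il2rb, the shared receptor chain for interleukin-2 and interleukin-15, was at 107 against 163 CPM and Cxcr3, a receptor for interferon-induced chemokines, at 58.5 against 96.5. In the cytotoxic list 10 of 14 genes were at least 2-fold lower (median −2.40), among them Ccl4 (18.9-fold), Fasl (15.9-fold), Gzmm (6.21-fold) and Nkg7 (2.48-fold). In the terminal effector list of 10 genes, 6 of 6 compared were (median −5.68). Of 10 NK lectin-like receptors, 5 of 6 compared were (median −4.67), while Klrd1, the CD94 partner chain, was at 264 against 483 CPM. Of the S100, annexin and galectin genes 9 of 13 were (median −1.57). In all these lists, a gene below 20 CPM in the selected cells was compared only because the other cells reached it, so it could only be lower. Zeb2, Tbx21 (4.13 CPM) and Klrk1 (11.4 CPM) were such genes, whereas Id2 (78.6 CPM) and Klrd1 reached 20 CPM in the selected cells. Within the UMI range, the counts in these 5 lists were 8 of 14, 4 of 10, 2 of 2, 4 of 5 and 6 of 13, beside 31 of 3868 over all genes.

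Of 19 homing and egress genes, 14 were compared and 13 of these were lower, beside 3685 of 4319 over all genes. Here too, a gene below 20 CPM in the selected cells could only be lower. At least 2-fold lower were 7 of the 14 (median −1.07), beside 214 of 4319 over all genes. Under either other scaling, 3 of the 14 were higher. Among the lower ones were Cx3cr1 and Ccr2 (29.2-fold), receptors for inflamed tissue, and the integrin chains Itgb1 (4.77-fold), Itga4 (3.95-fold), Itgb2 (84.0 against 239 CPM) and Itgal (65.8 against 176 CPM). The listed integrin chain Itgae was below 20 CPM in both groups and so not compared. It was higher in the selected cells, at 10.9 against 3.11 CPM (3.49-fold, 2.68–4.55). Of cytokine receptors 2 of 12 were at least 2-fold lower and 0 higher (median −0.18, 0.10 with TMM): the interleukin-18 receptor chains Il18rap (5.93-fold) and Il18r1 (2.39-fold). Of inhibitory receptors 2 of 3 were (median −1.33), Cd160 (3.45-fold) and Lair1 (2.51-fold), while Nt5e, which encodes CD73, was at 22.6 against 20.3 CPM. Pdcd1, Lag3 and Havcr2, receptors of exhausted cells, were below 20 CPM in both groups.

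Other lists had few or no genes past 2-fold. T cell receptor response genes had 0 of 4 higher and 0 lower (median −0.03, 0.24 with TMM), with Cd69, an early activation marker, at 214 against 137 CPM. Dissociation and AP-1 genes had 0 of 8 higher and 0 lower (median 0.18), with Fos at 38.7 against 22.1 CPM. Quiescence genes had 0 of 14 higher and 0 lower (median −0.00, 0.27 with TMM), and type I interferon response genes 0 of 17 higher and 1 lower, Phf11b (list median −0.01, 0.26). MHC class I presentation genes had 0 of 11 higher and 0 lower (median −0.30), with 0 genes higher at all and 5 with TMM. Glycolysis genes had 1 of 8 lower, the glucose transporter Slc2a3 (4.27-fold, list median −0.40), and GIMAP genes 1 of 8 lower, Gimap7 (2.75-fold, list median −0.59). Of 13 cell cycle genes only 4 reached 20 CPM, with 0 lower (median −0.46) and, within the UMI range, 1 lower, Stmn1 (2.15-fold). Below 20 CPM, 4 others were looked up after the values were seen, with 4 to 17 counts in the selected cells. Ube2c was 7.88-fold lower, Ccnb2 8.96-fold, Mki67 5.17-fold and Birc5 4.68-fold. Nuclear oxidative phosphorylation genes had 0 of 82 lower (median −0.22, 0.05 with TMM). Cytosolic ribosomal protein genes were higher in 75 of 77 cases, none past 2-fold (median 0.36), with Rps20 at 10409.9 against 6483 CPM; within the UMI range the median was 0.12.

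**Figure D3:**
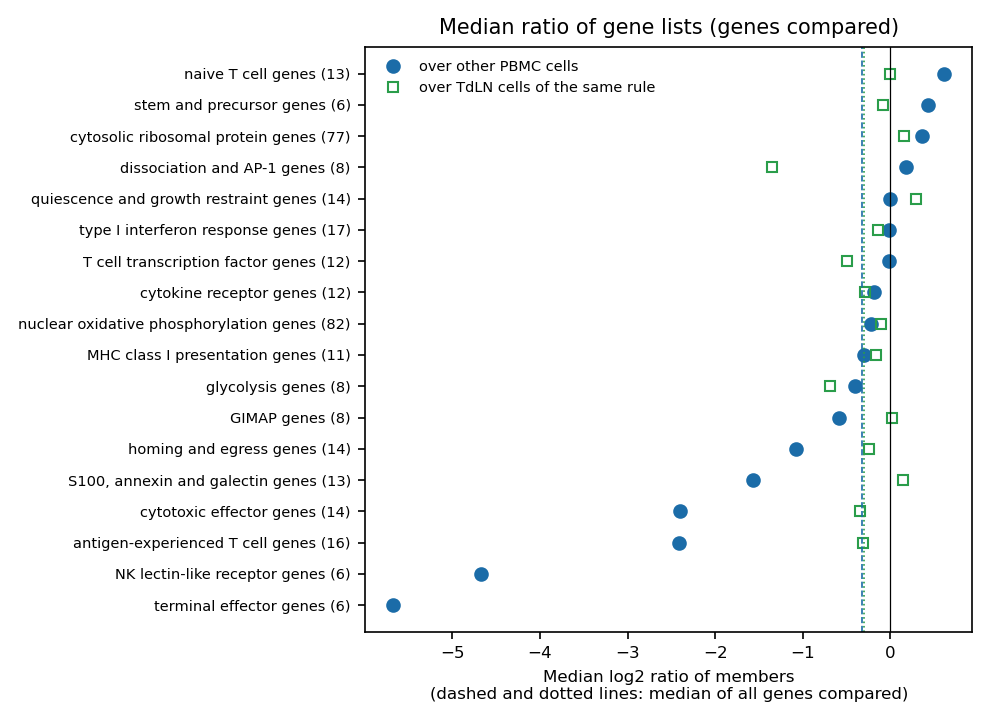
Median log2 ratio of CPM for gene lists with at least 6 genes compared, in the selected cells over other PBMC cells (filled circles) and over TdLN cells of the same rule (open squares). The number of genes compared with other PBMC cells is in parentheses, and dashed and dotted lines mark the medians of all genes, −0.32 and −0.30; terminal effector genes lie at −5.68 and naive T cell genes at 0.62 over other PBMC cells.

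The 8 combinations of the 3 rule genes show how the levels went with each of them. Dapl1 stood at 537 CPM in the selected cells, 528, 505 and 467 in the other Ccr7-positive groups and 579 in cells with Igfbp4 alone. It was at 99.1 CPM in cells with none of the 3 genes and 20.2 in cells with Gzma alone, and Tcf7 was at 145 and 51.7 there, against 264 in the selected cells. Ccl5 was graded further: 1009 CPM in the selected cells, 3478 with all 3 genes, 3697 with Ccr7 alone, 8119 with Ccr7 and Gzma, 27369 with none and 38915 with Gzma alone. Zeb2 went with Gzma among Ccr7-positive cells, at 1.15 and 4.52 CPM without Gzma and 26.9 and 59.5 with it. Cd44 went with the lack of Igfbp4, at 20.6 and 25.2 CPM in Ccr7-positive cells with Igfbp4 and 39.4 and 48.2 in those without.

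**Figure D4:**
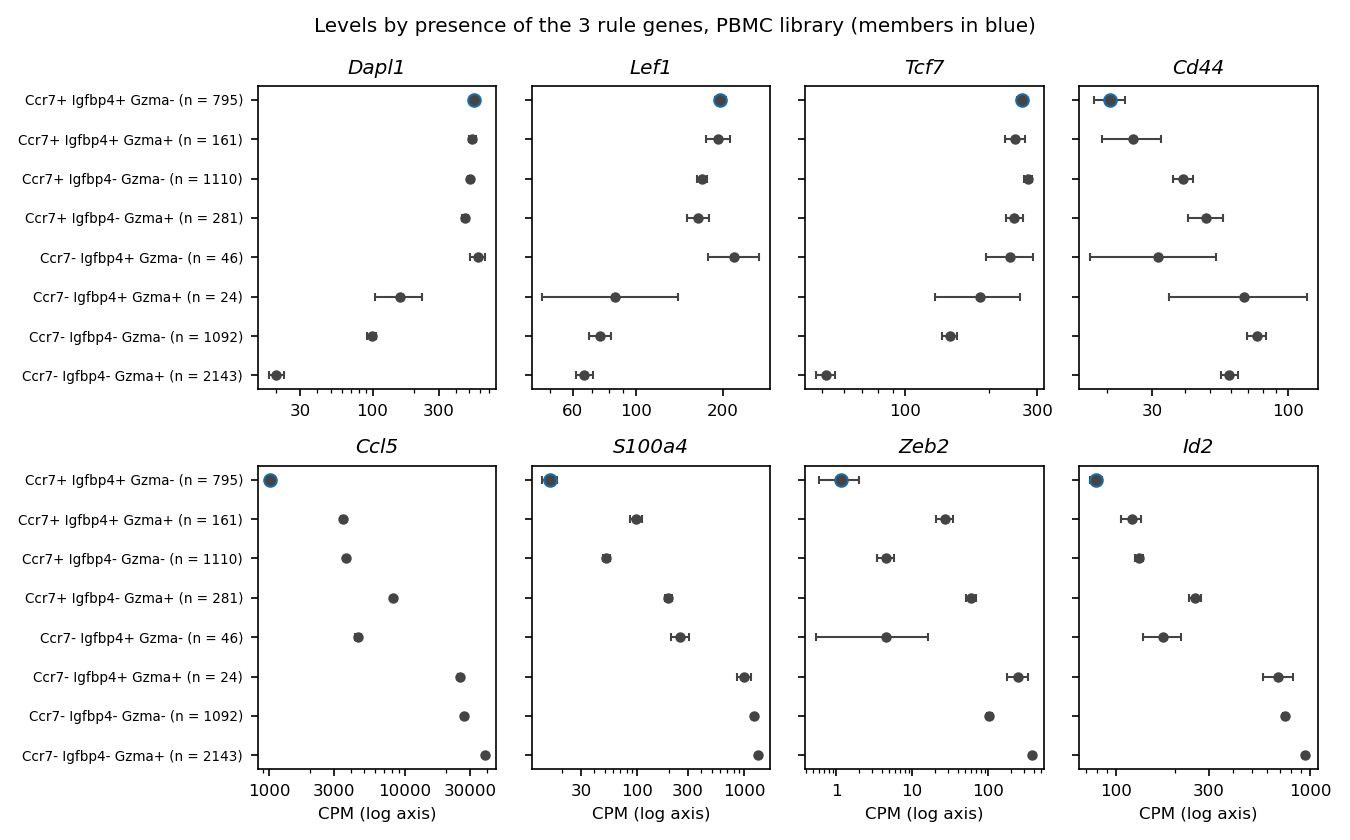
CPM (log axes) of 8 genes in the 8 groups of PBMC cells set by presence (+) or absence (-) of a UMI of Ccr7, Igfbp4 and Gzma. Points are summed CPM, bars 95% counting intervals, and the selected cells are ringed in blue; Dapl1 lies between 467 and 579 CPM in 5 groups, while Ccl5 runs from 1009 to 38915 CPM.

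The nearest cells were the 1110 with Ccr7 but neither Igfbp4 nor Gzma, whose median depth was 11947 UMIs and whose ribosomal share was 47.9%. Against them 1 of 3846 genes was at least 2-fold higher (0.026%) and 16 lower (0.416%). The higher gene was Ramp1, at 22.2 against 8.81 CPM (2.52-fold, 2.01–3.18). The lower genes were led by the NK receptors Klrc2 (6.76-fold), Klrc1 (5.94-fold) and Klrk1 (5.76-fold, 4.75–7.04). Gzmm, a granzyme, was at 18.6 against 75.9 CPM, Ccl5 at 1009 against 3697 and S100a6 at 78.1 against 284. Ctla2a, an inhibitor of cathepsins, was at 135 against 473 CPM, and the others were S100a4, Anxa2, Myb, Itgb1, Lgals1, Plek, Ahnak, Cd160 and Bcl2a1b. Naive list genes had a median log2 ratio of 0.02 over 13 genes, and Tcf7 was at 264 against 277 CPM.

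The same contrast was made inside the TdLN library, after the blood values were seen, with 1909 cells of the rule against 2660 cells with Ccr7 alone. There 0 of 4537 genes were at least 2-fold higher (0%) and 38 lower (0.838%). All 16 genes that were lower in blood had lower CPM in the node too, where the median log2 ratio over all genes compared was −0.09. Of the 13 with at least 20 CPM there, 12 were at least 2-fold lower, and Ahnak was 1.42-fold lower. Klrk1 was at 15.7 against 61.1 CPM (3.89-fold, 3.47–4.37), Ctla2a at 165 against 504, S100a6 at 49.7 against 137 and Ccl5 at 298 against 712. Ramp1 was at 33.4 against 24 CPM, 1.39-fold higher (1.26–1.54). Against all other TdLN cells, the rule's cells had 0 of 4535 genes at least 2-fold higher (0%) and 35 lower (0.772%). Those included C1qa, C1qb, Lyz2 and Apoe, macrophage genes that the other TdLN cells held at 36.1, 31.2, 189.7 and 224 CPM. The part of such cells in that comparison was not tested.

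The blood cells of the rule were also set against the TdLN cells of the rule. Tissue, its handling and the library cannot be told apart there, the node cells were shallower (10016 UMIs) and their ribosomal share was 45.4%. Among 4308 genes, blood was at least 2-fold higher for 17 (0.395%) and at least 2-fold lower for 129 (2.99%), with a median log2 ratio of −0.30 and 733 genes above 0. TMM scaling moved the ratios up by 0.30 and gave 2157 genes above 0, 46 at least 2-fold higher and 53 lower. Naive list genes had a median of −0.00 over 13 genes (0.30 with TMM) and 0 past 2-fold: Tcf7 was at 264 against 260.2 CPM and Lef1 at 196 against 196. Klf2 stood out at 1244 against 635 CPM, but it was at 1405 CPM in the other PBMC cells. The quiescence list had 2 of 14 genes at least 2-fold higher and 0 lower (median 0.29), Klf3 (2.33-fold) and Txnip (2.33-fold), both linked to restraint of growth. Both were high in the other PBMC cells too. Klf3 was at 164 CPM in the selected cells and 157.5 in the other PBMC cells, and Txnip at 468 and 519. Ccl5 was at 1009 against 298 CPM (3.39-fold), and after thinning 65.4% of blood and 21.01% of node cells had a UMI of it.

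Most genes of the cell cycle list and of the dissociation and AP-1 list were lower in blood. So were 3575 of all 4308 genes, 129 of them at least 2-fold. Of the cell cycle list 10 of 12 were at least 2-fold lower (median −3.23), with Pclaf at 3.37 against 58.7 CPM and Top2a at 9.90 against 58.7. A gene below 20 CPM in blood, such as Pclaf or Top2a, was compared only because the node cells reached it, so it could only be lower. Cells with a UMI of Mki67, Top2a, Pclaf or Birc5 numbered 75 in blood and 293 in the node. Without them, an alternative chosen after the values were seen, 16 genes were higher and 94 lower. The dissociation and AP-1 list had 5 of 9 at least 2-fold lower (median −1.35), with Fos at 38.7 against 196 CPM, and the T cell receptor response list 3 of 5 (median −1.08), with Cd69 at 214 against 382. Dusp2, a phosphatase induced by activation, was at 80.5 against 402 CPM. Id3, a transcription regulator of memory precursors, was at 16.5 against 141 CPM (8.55-fold lower) and was detected after thinning in 6.46% and 35.1% of cells. Cxcr6, a receptor of tissue-resident cells, was at 12.7 against 72.7 CPM. Some genes higher in blood were high in the whole PBMC library: Gm42418, a predicted gene that overlaps ribosomal RNA, was at 22584 CPM in the selected cells, 25325 in the other PBMC cells and 752 in the node cells. Lars2 was likewise at 731, 842 and 57.2 CPM.

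The selected cells were not uniform. Ccl5 had no UMI in 102 cells (12.8%), a median of 2 and a highest value of 353, and the 80 cells with most of it held 72.9% of its counts. The median in the other PBMC cells was 164 UMIs. Cells with 0 to 2 Ccl5 UMIs numbered 413, with 3 to 10 UMIs 234 and with over 10 UMIs 148, groups formed on a measured gene, so that their levels are a description. Genes of experienced cells were highest in the last group: S100a6 was at 19.2, 36.8 and 284 CPM, Gzmm at 5.25, 7.92 and 67.2, and S100a4 at 5.64, 5.70 and 53.8. Il2rb was at 78.9, 98.2 and 191 CPM, Itgb1 at 28.0, 26.0 and 77.7 and Cd44 at 17.5, 16.2 and 34.8. Itga4, another integrin chain, was lowest there, at 60.04, 58.3 and 46.7 CPM. Genes of the naive list went both ways: Dapl1 was at 589, 571 and 360.2 CPM, Lef1 at 203, 207 and 161 and Tcf7 at 277, 264 and 232, each lowest in the last group, while Satb1, at 226, 227 and 262, and Il7r, at 373, 364 and 411, were highest in it. Other beta V segments made up 11.2% (7.21–16.3), 8.57% (3.995–15.7) and 15.6% (9.02–24.5), with overlapping intervals. The part of free RNA in low Ccl5 values was not tested.

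**Figure D5:**
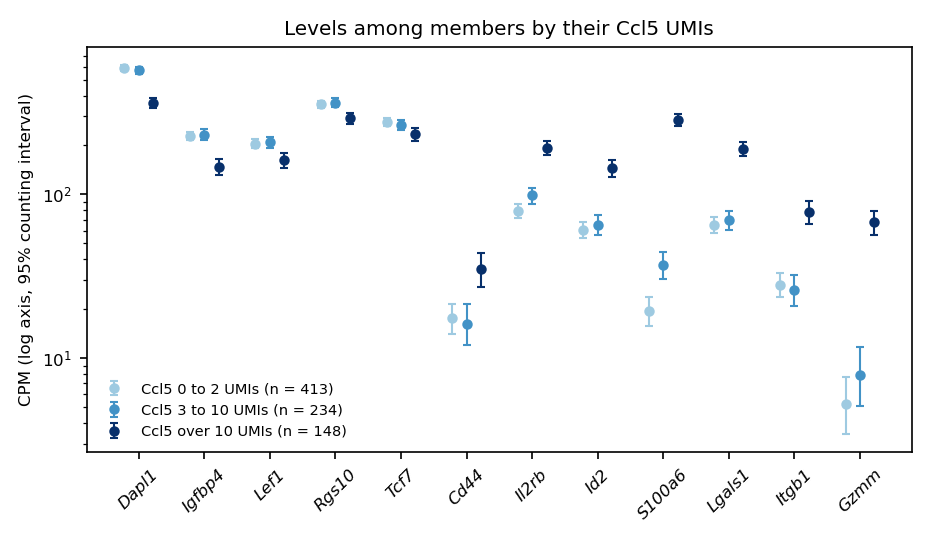
CPM (log axis, with 95% counting intervals) of 12 genes in the selected cells split by their Ccl5 UMIs, 0 to 2 (413 cells), 3 to 10 (234) and over 10 (148). S100a6 goes from 19.2 to 284 CPM and Dapl1 from 589 to 360.2.

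Split by the rule gene Igfbp4 itself, the same genes differed less. Cells with 1, 2 and at least 3 Igfbp4 UMIs (314, 154 and 327 cells) had Ccl5 at 1211, 1232 and 728 CPM and S100a6 at 89.0, 101 and 58.0. Dapl1 was at 528, 529 and 549.7 CPM, Lef1 at 188, 192 and 205 and Tcf7 at 265, 271 and 259. Other beta V segments made up 11.3% (6.95–17.1), 13.9% (7.16–23.6) and 10.6% (6.31–16.5).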

How the data were processed

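Single-cell 3′ RNA libraries (10x Genomics) of P14 CD8 T cells from PBMC, TdLN and memory were used, 1 each; TIL, which the design names, was not analysed here. The deposited values are raw UMI counts per gene and cell, made with Cell Ranger 3.1.0 on mm10, per the submitters' processing notes; 30934 of 31053 gene IDs matched GENCODE M21. The deposited matrices held 6165 PBMC, 7503 TdLN and 8321 memory barcodes. Cells of fewer than 500 genes or over 10% mitochondrial counts were removed, and raw counts were summed per group (Python 3.11.15, numpy 2.4.6, scipy 1.17.1, pandas 2.3.3). Summed counts have exact Poisson intervals, ratios exact conditional binomial intervals and shares Clopper-Pearson intervals; UMIs limit but do not remove amplification error. With 1 library a group there is no test, and a gene counted as different was at least 2-fold apart with at least 20 CPM in the higher group. TMM factors came from edgeR 4.0.16 (R 4.3.3).

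Shares were also taken after thinning each cell to 4800 UMIs, which left out 5 selected and 1070 other PBMC cells and kept 790, 3787 and, of the TdLN cells of the rule, 1894. Scrublet (scanpy 1.11.5) called 5 PBMC and 0 TdLN doublets, so it had not worked and doublets were not removed; leaving out the cells of highest score was an alternative. Named genes were the 12 at each end of the ratios over the 1883 genes that reached 50 CPM, 8 each way for blood against node, and up to 4 for each of 21 gene lists. The members and the lists were chosen with earlier results of these data known. Alternatives changed the cell filter, the rule, the scaling, the weight of cells, the minimum CPM, the UMI range and the receptor. Values of some named genes are not reported here.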

Additional observations from a re-analysis of the deposited data

Results flagged for a closer look

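Of the barcodes that the cell filter removed, 7 in the PBMC library and 48 in the TdLN library also met the rule on Ccr7, Igfbp4 and Gzma, and 0 in the memory library did. These cells had fewer than 500 genes or over 10% mitochondrial counts and were used in no comparison.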

How the results depend on the processing

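The selected share of 14.1% became 7.70% with at least 2 UMIs of both genes, 16.9% with no condition on Gzma and 9.18% with the rule on thinned cells. Genes at least 2-fold higher and lower than in the other PBMC cells (13 and 214) became 45 and 133 with TMM, 44 and 496 at 5 CPM, 1 and 51 at 100 CPM, 916 and 3734 with no minimum and 42 and 362 with equal weight per cell. They became 1 and 31 in the members' middle 80% of UMIs, 3 and 44 with Trbv13-3 as the sole beta segment and, in an alternative chosen after seeing the data, 95 and 636 against cells without Ccr7. The higher count alone passed 1.5 times its value at 96 with totals without ribosomal and mitochondrial genes, 23 with a cell filter of 1000 genes and 5% mitochondrial counts, 20 without the condition on Gzma and 29 with the rule on thinned cells. For blood against node (17 and 129) the counts became 46 and 53 with TMM, 55 and 438 at 5 CPM, 7 and 22 at 100 CPM and 1287 and 2999 with no minimum. There the higher count became 52 with totals without ribosomal and mitochondrial genes, and the lower count 198 with the stricter cell filter, 83 in the UMI range and 201 with Trbv13-3 alone. The cause of these moves was not tested, beyond the change in genes or cells that each setting makes. The share of other beta segments lay between 10.3% and 12.7%. For single genes, 120 log2 ratios under 16 settings gave 1795 values, of which 778 moved outside the counting interval of the reported ratio with no reversal of a 2-fold difference, and 32 changed sign. Of the sign changes, 30 were in 12 ratios that were under 2-fold as reported (Bach2, Cd8a, Id3, Ier2, Ikzf2, Isg20, Klf2, Myb, Nt5e, S1pr1, Tox and Tuba1b), among them 5 with TMM, 6 with totals without ribosomal and mitochondrial genes and 7 in the UMI range. The other 2, among ratios past 2-fold, were in alternatives chosen after seeing the data: Stmn1 in blood against node, to 0.66 without cells with a UMI of Mki67, Top2a, Pclaf or Birc5, and Izumo1r, to 1.0 against cells without Ccr7. No paired analysis was possible because each group had 1 library. Genes near 0.288 CPM in the selected cells rest on 3 counts or fewer.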

Other observations

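Interferon-inducible GTPases, which guard cells against intracellular pathogens, were looked at after the values were seen. Of 15 genes, 12 reached 20 CPM, and 10 of these were higher in the selected cells than in the other PBMC cells (634 of 4319 over all genes), 9 than in cells with Ccr7 alone (969 of 3846) and 8 within the UMI range of 10010 to 16305 (850 of 3868). Of the 10, Gbp8 (1.001-fold, 0.872–1.15), Gbp4 (1.03-fold, 0.925–1.14) and Irgm1 (1.06-fold, 0.944–1.19) had intervals that include equal levels. Tgtp1 stood at 22.2 against 8.58 CPM and Iigp1 at 24.9 against 11.6, both at least 2-fold, while the ratios ran from 0.581 to 2.59. Over cells with Ccr7 alone they ran from 0.843 to 1.68.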
